A study of Homo sapiens with 9 samples.

Results

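Mitochondrial ribosomal protein genes were followed in HepG2 cells, a line established from a human liver tumor, with glutamine (Gln) added or during Gln deprivation. The members were all genes of the deposited table whose symbol begins with MRPL or MRPS, followed by a number and at most the letter A, B or C. The rule found 78 of the 22587 genes, and 77 of them passed the filter on low values together with 11880 genes in all. RNA-seq had been done on 9 libraries in 3 groups of 3. They came from cells in normal medium with Gln added, cells deprived of Gln for 12 h and cells deprived of Gln for 24 h. The base medium was high-glucose DMEM with 10% fetal bovine serum, and no genetic change is given for any group. GlutaMAX, a dipeptide that releases Gln, is given by the labels as the treatment of the cultures in normal medium, whereas the treatment protocol puts it into the Gln-free medium, so the groups are named here as the labels name them. HepG2 is a single line, and the labels number the libraries of a group as replicates without saying how the cultures were kept apart, so the p-values measure the spread between these libraries.

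Mitochondria keep their own ribosomes, which translate the few proteins encoded by mitochondrial DNA, all of them core subunits of the respiratory chain and ATP synthase. The RNA of these ribosomes comes from mitochondrial DNA, but every protein is encoded in the nucleus, made in the cytosol and imported. The small subunit decodes the mRNA and the large subunit joins the amino acids. Some of the proteins descend from bacterial ribosomal proteins and others were added in the course of mitochondrial evolution.

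By this division, 51 members encode proteins of the large subunit and 26 of the small subunit. MRPS18A and MRPS30 were counted with the large subunit, where their proteins sit in spite of their names. The last member, MRPS36, was named as a small subunit protein and is now known as a part of the 2-oxoglutarate dehydrogenase complex. Homologues of bacterial proteins make up 47 members and proteins specific to mitochondrial ribosomes 30. The 4 hepatocyte markers at the highest levels, ALB, APOA1, SERPINA1 and APOB, were present in every library, and none of the 8 hepatocyte markers had a group mean under 16.7 FPKM (fragments per length of gene, scaled to sequencing depth). Of the markers of other cell types, CDH5 (endothelium), COL1A1 and COL3A1 (fibroblasts) had at most 3 fragments in a library, PECAM1 (endothelium) had at most 88 (0.343 FPKM), and CD68, known from macrophages, had a mean of 36.1 FPKM with Gln added and log2 fold changes of -0.29 (12 h) and -0.66 (24 h). Libraries held 29618744 to 36258363 fragments on genes. TRIB3, DDIT3, SESN2 and CEBPB, 4 genes of the starvation response, were higher at both times. The study picked these genes using the same libraries, so their change is not an independent check. It describes CEBPB as downregulated, whereas the log2 fold changes of CEBPB here were 1.44 and 1.48.

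The promoters of 69 members were found in a RefSeq table (GRCh38.p14) that holds the 250 bases before and the 50 bases after the start of each transcript. The letters CCGGAAG, the core bound by ETS family factors such as GABPA, occurred on either strand in 29 of the 69 windows (42.0%) and in 10.7% of 27305 windows. These 27305, called all windows below, are 1 for each gene symbol of the table and include genes that were not tested here. The YY1 letters AAGATGGCG occurred in 13 member windows (18.8%), against 1.85% of all windows. The SP factor letters GGGCGG were present in 60.9% of member windows and 44.6% of all windows. The palindrome bound by NRF1, a regulator of nuclear genes for mitochondria, was found in the window of MRPL17 only. It is the longest run of capitals in that sequence below. The share was 1.45% of the members against 1.36% of all windows. Only the exact palindrome was searched, so near matches were not counted, and the shares do not show which members lack NRF1 sites. The E-box CACGTG occurred in 8.70% against 7.43%, and CCAAT in 29.0% against 35.7%. The amino acid response letters TGATGNAAT occurred in 1 member window, 1.45% against 1.02% of all windows. The ETS letters end and the YY1 letters begin with AAG, but in none of the 4 member windows with both motifs did they share bases. The table repeats genes with several starts, and 11 members had more than 1 window, of which the window listed at the top was used.

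The 120 bases before the start are shown for a member with a large fall and paired ETS letters (MRPL27), for the bearer of the NRF1 palindrome (MRPL17) and for a pair of members that rose (MRPS22 and MRPS30). Capitals mark the letters of the motifs above, on either strand, and each sequence runs 5′ to 3′ on the strand of its gene. They lie at chr17:50373185-50373304 (minus strand), chr11:6683341-6683460 (minus strand), chr3:139343874-139343993 (plus strand) and chr5:44808827-44808946 (plus strand).
MRPL27: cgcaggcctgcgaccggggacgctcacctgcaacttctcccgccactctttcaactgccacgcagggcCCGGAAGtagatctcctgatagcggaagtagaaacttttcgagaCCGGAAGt
MRPL17: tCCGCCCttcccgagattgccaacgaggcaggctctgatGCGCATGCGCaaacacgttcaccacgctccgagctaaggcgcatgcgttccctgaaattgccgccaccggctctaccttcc
MRPS22: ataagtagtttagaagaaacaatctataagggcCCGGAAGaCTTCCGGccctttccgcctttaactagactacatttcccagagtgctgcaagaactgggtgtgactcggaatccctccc
MRPS30: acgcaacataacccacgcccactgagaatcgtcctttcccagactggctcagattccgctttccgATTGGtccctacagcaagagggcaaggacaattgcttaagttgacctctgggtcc
The ETS letters began 52 and 8 bases before the start of MRPL27, and MRPS22 had a pair back to back, 87 and 79 bases before its start, and a further match after the start, outside the part shown. At 24 h, 15 of the 41 members with a window that were lower held the ETS letters, 3 of the 6 that were higher and 11 of the 22 that were not called. The YY1 letters were in 4 of the 41, 3 of the 6 and 6 of the 22. These matches are descriptions of the letters, and no binding was measured.

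With Gln added, the levels of the 77 tested members spanned 20.9-fold, from 5.78 to 121 FPKM with a median of 29.0. FPKM are scaled to length, so they can be compared between genes as far as the lengths used hold. The 83 tested genes of the cytosolic ribosome, which makes nearly all other proteins of the cell, had a median of 377 FPKM. MRPL18, whose protein lies in the central protuberance, was highest with 116, 124 and 123 FPKM in the 3 libraries. MRPL12, a protein of the stalk that recruits translation factors, followed with 115, 114 and 112 FPKM. These libraries of MRPL18 and MRPL12 did not overlap, but 69.5% of the exonic bases of MRPL12 in GENCODE v44 were shared with another gene model on the same strand, so its level is uncertain. The lowest tested members were MRPS33 (5.78 ± 0.260 FPKM, SD, n = 3), MRPL42 (5.82 ± 0.431) and MRPS28 (6.09 ± 0.902), whose ranges overlapped. The lengths behind these FPKM were 4339, 15560 and 838 bases, against a median of 1550 over the tested members. With Gln added MRPL42 had 2917 to 3455 fragments a library and MRPS28 154 to 204, so their place in the order depends on these lengths. Replicates of a member varied by a median of 3.16% of the mean in the Gln-added group, 4.67% after 12 h and 5.44% after 24 h (coefficient of variation), and between 89 and 6992 fragments stood behind each value of a tested member.

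**Figure D1:**
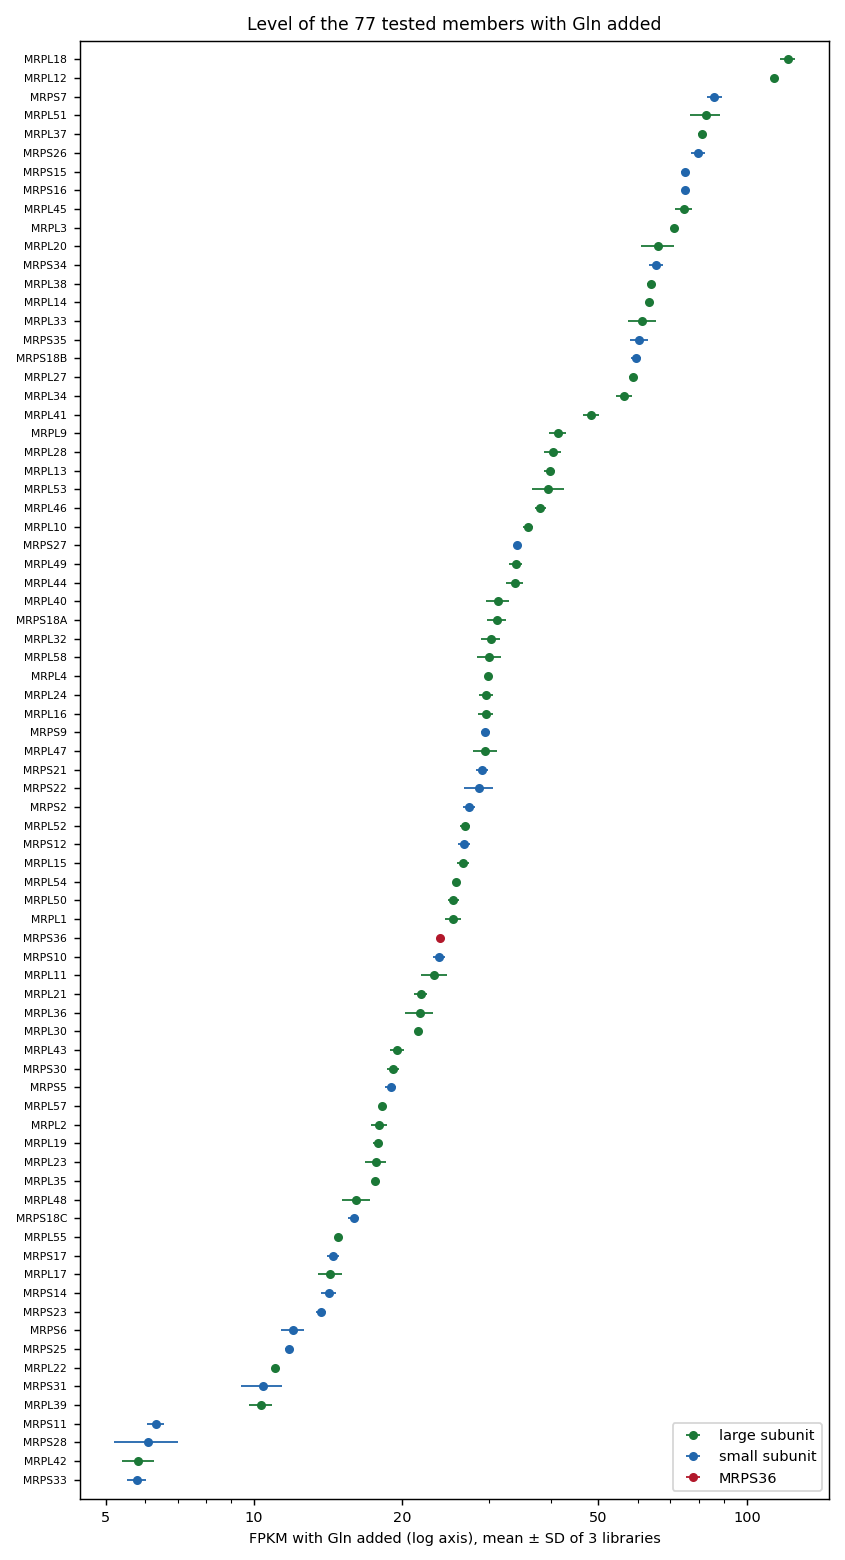
Mean FPKM with Gln added of the 77 tested members, ordered by level on a log axis, with bars for the SD of 3 libraries and colour for the ribosomal subunit. MRPL18 and MRPL12 stand above 110 FPKM, and 4 members (MRPS11, MRPS28, MRPL42 and MRPS33) lie below 7 FPKM.

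MRPS24, a small subunit protein, did not pass the filter. It was listed at 0 in 6 of the 9 libraries and had 1 fragment in each of the others, up to 0.0506 FPKM. In GENCODE v44 a readthrough transcript of URGCP and MRPS24 covers 23.2% of its exonic bases. How reads of such shared bases were assigned is not given in the sources used here, and no fold change is given for this gene.

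Mitochondrial ribosomal protein mRNAs were called lower more often than higher after 12 h of Gln deprivation. Of the 77 tested members, 43 fell (55.8%), whereas 31.0% of all genes tested were called lower. Another 9 members rose (11.7%), against 29.1% of all genes, and 25 were not called. The median log2 fold change, on the scale of log2(FPKM + 0.1), was -0.15 for the members and -0.02 for all genes tested. With the general trend on gene length removed, 33 of the 77 members were lower, beside 31.7% of all genes, and the median was -0.06. With a library left out 36 to 44 members were lower. Calls were made by limma at an adjusted p under 0.05 over all genes tested. The deprived libraries lay wholly below those with Gln added for 46 of the 77 members (59.7%) and wholly above for 8 (10.4%), against 34.4% and 32.8% of all genes.

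At 24 h the counts were similar in size. Of the 77 members, 45 fell (58.4%), against 31.7% of all genes, and 8 rose (10.4%), against 33.0% of all genes. The median log2 fold change was -0.22 for the members and 0.01 for all genes. The 24 h libraries lay wholly below those with Gln added for 46 of the 77 members (59.7%) and wholly above for 9 (11.7%), against 34.1% and 35.7% of all genes. The comparisons of 12 h and 24 h share the 3 libraries with Gln added. By call, 39 members were lower at both times (50.6%), 8 were higher at both (10.4%) and 19 were called at neither (24.7%), against 25.7%, 25.9% and 27.2% of all genes. Another 4 were called lower at 12 h only, 6 lower at 24 h only and MRPS18A higher at 12 h only, which by itself does not show that the times differed.

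**Figure D2:**
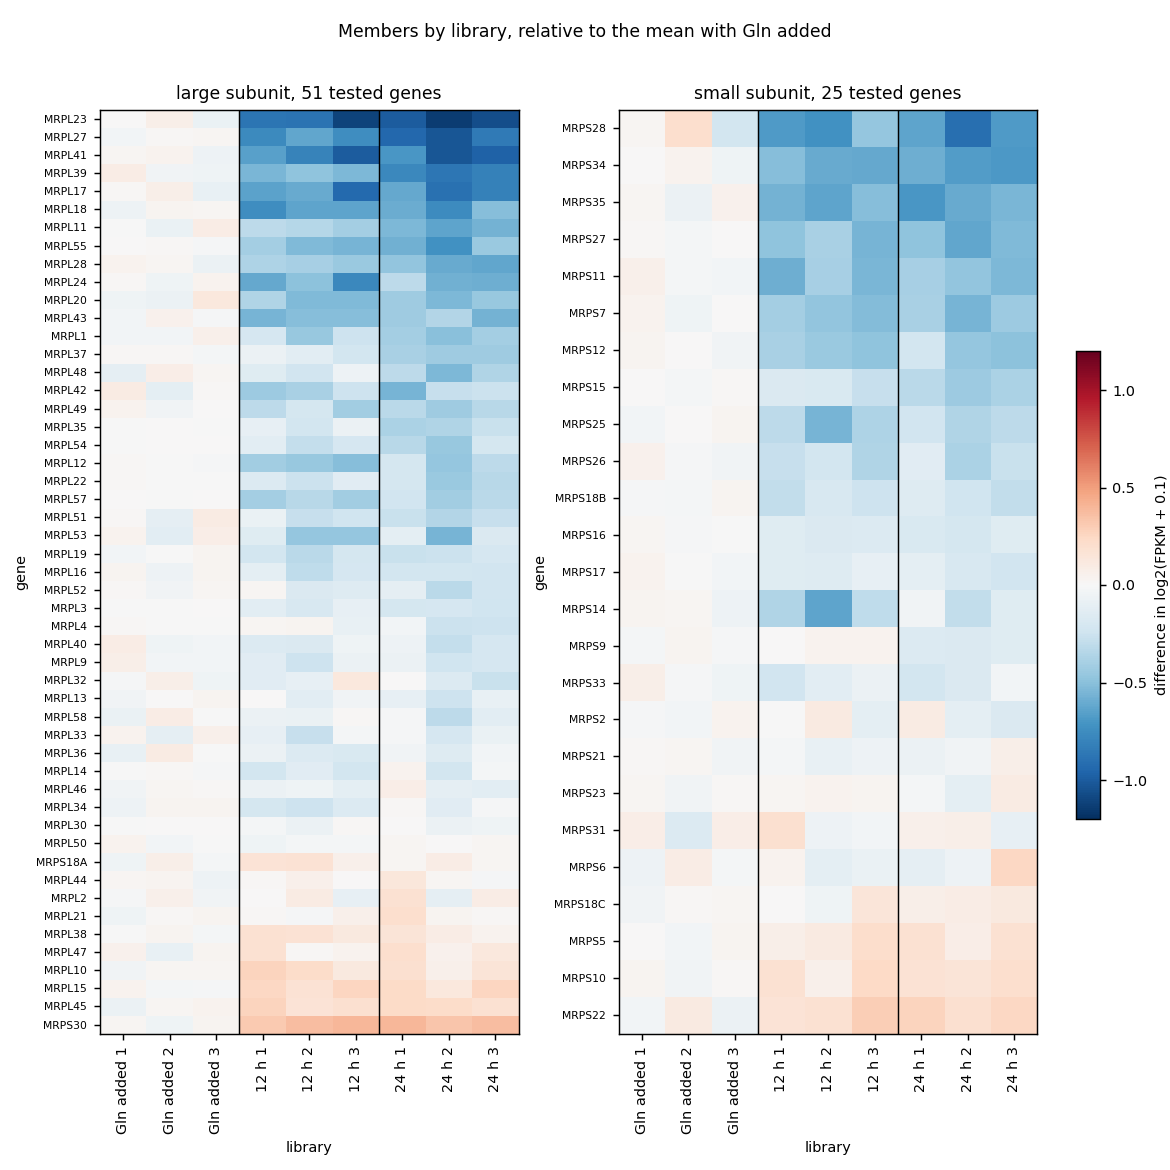
Each tile is log2(FPKM + 0.1) of 1 member in 1 library minus the mean of the libraries with Gln added, for 51 large subunit and 25 small subunit genes ordered by their change at 24 h (blue lower, red higher). The 6 Gln-deprived libraries share the colours of most rows, from MRPL23 (-1.07 at 24 h) to MRPS30 (0.37).

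Summed over all members, mitochondrial ribosomal proteins made up 0.720% ± 0.00580 of all FPKM with Gln added (SD, n = 3). The share was 0.635% ± 0.00475 at 12 h and 0.630% ± 0.0239 at 24 h, and the 6 deprived libraries (0.606% to 0.654%) all lay under the 3 others (0.713% to 0.724%). Among the 24 h libraries, replicate 1 was highest and replicate 2 lowest. The share of the cytosolic ribosomal proteins was 9.53% ± 0.111 in the Gln-added group, 9.78% ± 0.155 after 12 h and 9.94% ± 0.667 after 24 h. All 3 libraries at 12 h lay above those with Gln added, and those at 24 h spread from 9.22% to 10.5%. Bulk RNA-seq cannot tell fewer cells with a transcript from less of it in each cell.

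**Figure D3:**
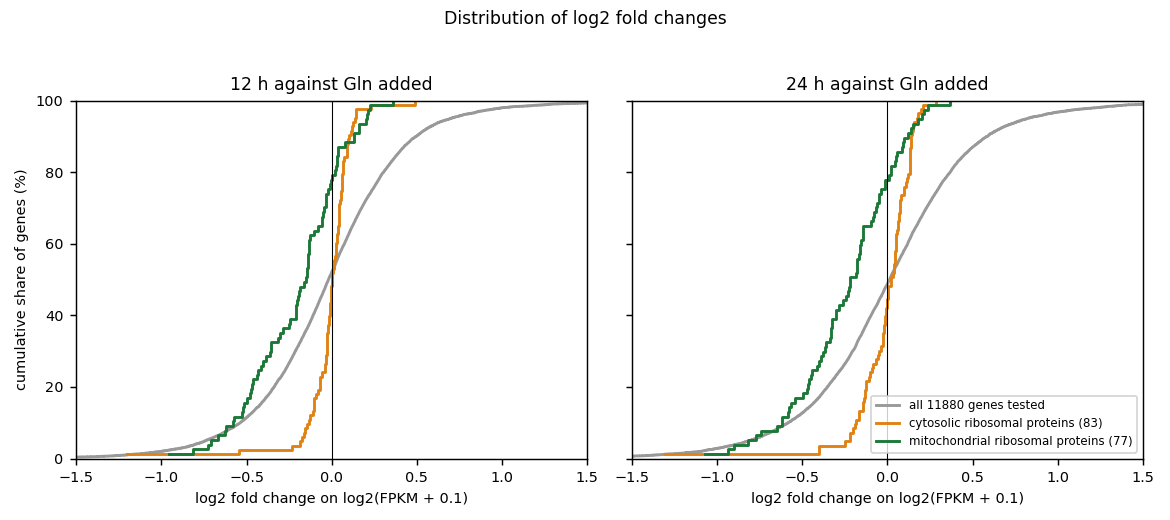
Cumulative share of genes (vertical axis, percent) by log2 fold change at 12 h (left) and 24 h (right) for the 77 members, the 83 cytosolic ribosomal proteins and all 11880 genes tested. The curve of the members is shifted to the left, with medians of -0.15 and -0.22, and the interquartile ranges of the cytosolic genes run from -0.04 to 0.06 (12 h) and from -0.09 to 0.10 (24 h), with RPS26 farthest below at both times (-1.31 at 24 h).

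Of all genes tested, 31.0% were lower and 29.1% higher at 12 h, and 31.7% and 33.0% at 24 h. By subunit, the counts were as follows. In the large subunit 29 of 51 members were lower (56.9%) and 6 higher (11.8%) at 12 h, with a median log2 fold change of -0.15. At 24 h 31 were lower (60.8%) and 5 higher (9.80%), with a median of -0.22. In the small subunit 14 of 25 tested members were lower (56.0%) and 3 higher (12.0%) at each time, with medians of -0.16 and -0.18. The summed FPKM of the large subunit was 2.32 ± 0.0303 times that of the small subunit (SD, n = 3) in the Gln-added group, 2.38 ± 0.0293 times after 12 h and 2.36 ± 0.0328 times after 24 h. The 24 h libraries overlapped with both other groups, and all 12 h libraries (2.35 to 2.41) were above those with Gln added (2.29 to 2.34). Of the 46 tested homologues of bacterial proteins, 28 were lower and 4 higher at each time. Of the 30 proteins specific to mitochondria, 15 were lower and 5 higher at 12 h, and 17 were lower and 4 higher at 24 h.

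The largest fall was that of a protein at the exit of the tunnel through which new chains leave the large subunit. MRPL23 (chr11:1947278-1984522, GRCh38) had 17.8, 18.5 and 16.7 FPKM with Gln added, 9.57, 9.50 and 8.13 FPKM after 12 h and 8.76, 7.97 and 8.38 FPKM after 24 h. All 6 deprived libraries lay well below the 3 others. Its log2 fold change at 12 h was -0.96 ± 0.069 (SE, adjusted p = 8.98e-07) and that at 24 h was -1.07 ± 0.069 (adjusted p = 2.6e-07), the largest falls of any tested member at both times. The annotated antisense gene MRPL23-AS1 covers 2.86% of its exonic bases.

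MRPL17 (chr11:6680385-6683340), another tunnel exit protein and the gene with the NRF1 palindrome, had 14.4, 15.0 and 13.4 FPKM with Gln added. It had 9.10, 9.32 and 7.43 FPKM at 12 h and 9.31, 7.64 and 8.07 FPKM at 24 h, again without overlap. The log2 fold changes were -0.73 (adjusted p = 6.91e-05) and -0.77 (adjusted p = 3.47e-05). MRPL24 and MRPL22 at the same exit also fell, by 0.63 and 0.19 on the log2 scale at 12 h. MRPL45, which binds the ribosome to the inner membrane at this exit, went the other way. It had 71.1, 75.8 and 76.5 FPKM with Gln added, 89.8, 83.2 and 84.8 FPKM after 12 h and 87.2, 87.0 and 84.8 FPKM after 24 h. Its log2 fold change was 0.21 ± 0.041 at each time (adjusted p = 0.00125 and 0.000885). MRPL47 was not called, with log2 fold changes of 0.08 and 0.12. In all, 4 of the 6 tunnel exit members fell (66.7%) and 1 rose (16.7%) at both times. Of all genes tested, 25.7% were lower and 25.9% higher at both times.

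The central protuberance, which faces the small subunit and in human mitochondria carries a tRNA in place of the 5S rRNA, held 8 members. At 12 h 3 of them fell (37.5%), near the 31.0% of all genes, and 1 rose (12.5%), against 29.1%. At 24 h 5 fell (62.5%) and 1 rose (12.5%), against 31.7% and 33.0% of all genes. MRPL27 had 57.6, 59.2 and 59.7 FPKM with Gln added, 34.6, 38.2 and 35.0 FPKM after 12 h and 30.5, 28.9 and 32.6 FPKM after 24 h. The 3 groups did not overlap and each was lower than the one before. Its log2 fold change at 12 h was -0.71 ± 0.052 (adjusted p = 9.97e-07) and that at 24 h was -0.94 ± 0.052 (adjusted p = 8.14e-08).

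MRPL18, the most abundant member with Gln added, had 72.1, 78.2 and 78.0 FPKM at 12 h and 80.3, 71.7 and 84.9 FPKM at 24 h. Its level was 0.628 and 0.651 of that with Gln added, with log2 fold changes of -0.67 (adjusted p = 4.59e-06) and -0.62 (adjusted p = 5.98e-06). The other members of the protuberance were less changed or not called. MRPL55 fell by 0.50 (adjusted p = 0.000106) and 0.58 (adjusted p = 2.71e-05) on the log2 scale. MRPL48 and MRPL40 were lower at 24 h only, by 0.40 and 0.18. MRPL38 rose by 0.16 and 0.10 on the log2 scale, although 41.1% of its exonic bases are shared with another gene model on its strand. Its annotated exons hold 3342 bases, against a length of 1358 behind the FPKM. MRPL58, a peptidyl-tRNA hydrolase that rescues stalled ribosomes and is also built into the large subunit, was not called at 12 h (-0.04, adjusted p = 0.618) or 24 h (-0.15, adjusted p = 0.0801).

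The 3 proteins of the stalk moved in different directions. MRPL12 had 85.3, 83.0 and 79.6 FPKM at 12 h and 98.3, 82.5 and 91.5 FPKM at 24 h, all under its 3 values with Gln added. Its log2 fold changes were -0.46 ± 0.056 (adjusted p = 4.56e-05) and -0.33 ± 0.056 (adjusted p = 0.000419). MRPL11 fell from 23.1, 21.9 and 24.7 FPKM with Gln added to 18.6, 18.3 and 17.5 FPKM at 12 h and 15.9, 14.9 and 15.6 FPKM at 24 h.

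MRPL10, on which the stalk is anchored, was higher. Its values were 35.0, 36.5 and 36.4 FPKM with Gln added, 43.2, 41.9 and 39.1 FPKM after 12 h and 41.0, 37.5 and 40.2 FPKM after 24 h. The log2 fold change at 12 h was 0.20 ± 0.048 (adjusted p = 0.00417) and that at 24 h was 0.14 ± 0.048 (adjusted p = 0.0291). The call at 24 h was lost when any of 4 libraries was left out (with Gln added, replicate 1 or 3, and 24 h, replicate 1 or 3), with an adjusted p of up to 0.103 over the alternatives that lost it.

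Among large subunit proteins that bacteria lack, MRPL41 had the largest fall at both times and was followed at 24 h by MRPL39. MRPL41 (chr9:137551879-137552555) had 49.1, 49.6 and 46.3 FPKM with Gln added, 30.8, 27.7 and 24.2 FPKM after 12 h and 29.8, 23.7 and 24.5 FPKM after 24 h. Its log2 fold changes were -0.81 ± 0.096 (adjusted p = 3.42e-05) and -0.90 ± 0.096 (adjusted p = 1.26e-05). MRPL39 (chr21:25585656-25607517), which resembles the tRNA-binding part of threonyl-tRNA synthetases, had 11.0, 10.0 and 9.97 FPKM with Gln added, 7.02, 7.35 and 7.07 FPKM after 12 h and 5.99, 5.59 and 5.81 FPKM after 24 h. The 3 groups were apart from each other, and the log2 fold changes were -0.52 (adjusted p = 1.14e-05) and -0.82 (adjusted p = 2.57e-07). The annotated exons of MRPL39 hold 1199 bases, against a length of 3256 behind the FPKM. MRPL42, among the lowest members by FPKM on a length of 15560 bases, fell by 0.36 and 0.37 on the log2 scale. It went from 6.22, 5.37 and 5.89 FPKM with Gln added to between 3.92 and 4.87 FPKM in the 6 deprived libraries.

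The largest rise of any tested member at both times was that of MRPS30 (chr5:44808947-44820428), a large subunit protein that bacteria lack. It had 19.4, 18.5 and 19.6 FPKM with Gln added, 23.8, 24.8 and 25.2 FPKM after 12 h and 25.3, 24.1 and 24.8 FPKM after 24 h. Every deprived library was above the 3 others, and the level was 1.28 and 1.29 times that with Gln added. The log2 fold changes were 0.36 ± 0.040 (adjusted p = 2.3e-05) and 0.37 ± 0.040 (adjusted p = 1.47e-05). MRPL15, a homologue of a bacterial large subunit protein, had 27.4, 26.1 and 26.3 FPKM with Gln added, 31.5, 30.0 and 31.7 FPKM after 12 h and 31.2, 29.1 and 31.7 FPKM after 24 h. It rose by 0.23 (adjusted p = 0.00111) and 0.21 (adjusted p = 0.00175) on the log2 scale.

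In the small subunit, the largest fall was that of MRPS28, from 6.15, 6.97 and 5.17 FPKM with Gln added to 3.75, 3.62 and 4.37 FPKM at 12 h and 3.87, 3.19 and 3.73 FPKM at 24 h. The log2 fold changes were -0.62 ± 0.11 (adjusted p = 0.000817) and -0.74 ± 0.11 (adjusted p = 0.000204), on 89 to 204 fragments a library. Of its exonic bases, 35.8% are shared with another gene model on its strand. Its annotated exons hold 1817 bases, against a length of 838 behind the FPKM. MRPS12, the homologue of the bacterial decoding protein S12, had 27.4, 26.9 and 25.9 FPKM with Gln added, 20.4, 19.5 and 19.1 FPKM after 12 h and 22.9, 19.4 and 18.9 FPKM after 24 h. It fell by 0.44 (adjusted p = 0.000205) and 0.39 (adjusted p = 0.00038) on the log2 scale.

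The small subunit members that rose were MRPS22, MRPS10 and MRPS5. MRPS22, which is specific to mitochondria, had 27.9, 30.8 and 27.2 FPKM with Gln added, 32.1, 32.4 and 35.1 FPKM after 12 h and 34.5, 32.6 and 34.0 FPKM after 24 h. Its log2 fold changes were 0.21 ± 0.054 (adjusted p = 0.00566) and 0.24 ± 0.054 (adjusted p = 0.00284). Antisense exons, mostly of COPB2, lie over 42.8% of its exonic bases. Whether counting used the strand is not given in the sources used here. Its annotated exons hold 16385 bases but the length behind the FPKM was 1410, so the overlap within the counted bases is unknown. MRPS10, which has a bacterial homologue, had 24.2, 23.0 and 24.0 FPKM with Gln added and 24.8 to 28.0 FPKM in the 6 deprived libraries. It rose by 0.16 and 0.18 on the log2 scale.

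The 3 MRPS18 genes are copies that all descend from the gene of bacterial S18, and MRPS18A was listed as specific to mitochondria because its protein sits in the large subunit. MRPS18B was lower, with 59.0, 58.8 and 61.2 FPKM with Gln added, 48.6, 52.1 and 50.3 FPKM after 12 h and 53.6, 50.4 and 48.6 FPKM after 24 h (log2 fold changes of -0.24 and -0.23). MRPS18C, with 15.5 to 16.2 FPKM with Gln added and 15.4 to 17.7 FPKM in the deprived libraries, was not called (0.03 and 0.09). MRPS18A had 30.1, 32.7 and 30.5 FPKM with Gln added, 34.7, 35.2 and 32.4 FPKM after 12 h and 31.6, 33.0 and 31.6 FPKM after 24 h. It was called higher at 12 h (0.13, adjusted p = 0.0262) although the groups overlapped, and the call was lost without replicate 1 or 3 with Gln added or replicate 1 or 2 at 12 h (adjusted p of 0.0821 to 0.102). Exons of RSPH9 lie opposite 50.9% of the exonic bases of MRPS18A, and those of ABRAXAS1 opposite 40.2% of MRPS18C. The annotated exons of MRPS18C hold 4866 bases, against a length of 1550 behind the FPKM.

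MRPS36 differed little, with 23.5, 23.8 and 24.1 FPKM with Gln added, 23.2, 23.5 and 23.1 FPKM after 12 h and 23.1, 22.9 and 21.4 FPKM after 24 h. Its log2 fold changes were -0.03 ± 0.039 (adjusted p = 0.498) and -0.08 ± 0.039 (adjusted p = 0.0846). MRPL36, the homologue of a small zinc-binding protein of bacteria, was close to the threshold at 12 h (-0.14, adjusted p = 0.0504) and was not called at 24 h (-0.08, adjusted p = 0.255).

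**Figure D4:**
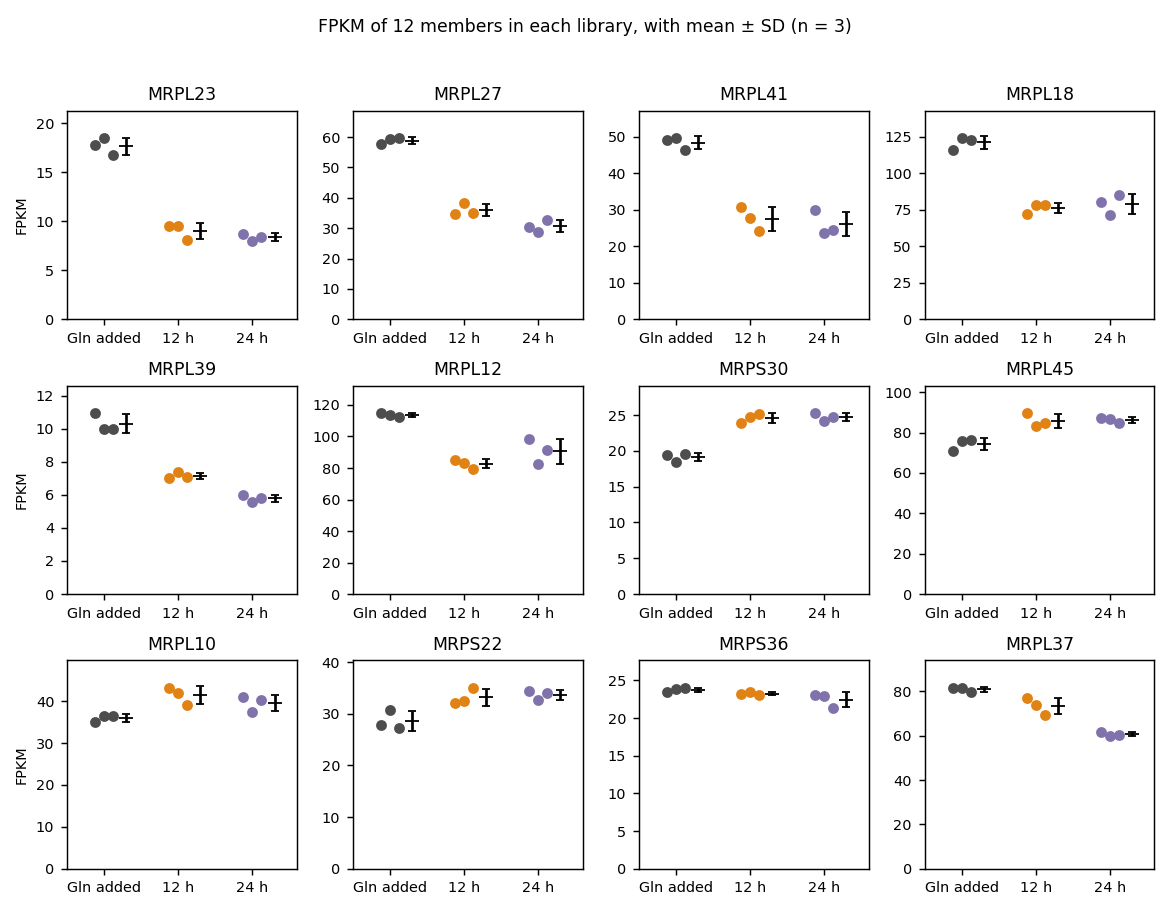
FPKM (vertical axes, each from 0) of 12 members in each of the 9 libraries, with a dash and bar for the mean and SD of 3 libraries. MRPL23, MRPL27, MRPL41, MRPL18, MRPL39, MRPL12 and MRPL37 are lower in all deprived libraries, MRPS30, MRPL45, MRPL10 and MRPS22 are higher, and MRPS36 lies between 21.4 and 24.1 FPKM throughout.

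Between 12 h and 24 h of deprivation, compared directly, 9 of the 77 members fell (11.7%), against 10.5% of all genes, and MRPL34 alone rose (1.30%), against 9.57% of all genes. The share that fell was thus near that of all genes. The median log2 difference was -0.02 for the members and 0.02 for all genes. The largest falls were those of MRPL39 (-0.30 ± 0.053, adjusted p = 0.00316), MRPL37 (-0.27 ± 0.040, adjusted p = 0.000972), MRPL48 (-0.26 ± 0.070, adjusted p = 0.0253), MRPL27 (-0.23 ± 0.052, adjusted p = 0.0118) and MRPL11 (-0.23 ± 0.051, adjusted p = 0.0109). MRPL37, a large subunit protein without a bacterial homologue, had 81.6, 81.7 and 79.5 FPKM with Gln added, 76.9, 74.0 and 69.4 FPKM after 12 h and 61.7, 60.1 and 60.3 FPKM after 24 h. MRPL48, of the central protuberance, had 15.0, 17.0 and 16.4 FPKM, then 14.5, 13.8 and 15.4 FPKM and then 12.9, 11.1 and 12.6 FPKM. In both genes every 24 h library lay under every 12 h library.

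MRPL34 had 53.9, 57.6 and 57.6 FPKM with Gln added, 48.7, 47.6 and 50.2 FPKM after 12 h and 56.8, 51.2 and 55.7 FPKM after 24 h. It was lower at 12 h (-0.21, adjusted p = 0.00291), was not called at 24 h (-0.05, adjusted p = 0.384) and was higher at 24 h than at 12 h (0.16, adjusted p = 0.0372). The last call was lost under 12 of 20 alternatives, and the call at 12 h was lost with the length trend removed (adjusted p = 0.308).

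The members were short genes, and short genes were lower in general. The lengths behind the FPKM ranged from 496 to 15560 bases with a median of 1550, against a median of 3820 bases over all genes tested. Among all tested genes of at most 1000 bases the median log2 fold change was -0.22 (12 h) and -0.14 (24 h), and among those over 5000 bases it was 0.05 and 0.09. The members of at most 1000 bases had medians of -0.21 and -0.29. The 23 members of 1000 to 1500 bases had medians of -0.15 and -0.17, against -0.16 and -0.11 for all genes of that length, and the 15 of 1500 to 2000 bases had medians of -0.06 and -0.16, against -0.08 and -0.05. The 11 members of 2000 to 3000 bases had medians of -0.32 and -0.18, against -0.05 and -0.03 for all genes of that length, and the 11 of 3000 to 5000 bases had medians of -0.19 and -0.33, against -0.01 and 0.01. Cytosolic ribosomal proteins, with a median length of 1140 bases, were shorter still. Of the 83 tested, 9 were lower (10.8%) and 4 higher (4.82%) at 12 h, and 16 were lower (19.3%) and 13 higher (15.7%) at 24 h, against 31.0% and 29.1% and then 31.7% and 33.0% of all genes. The part of length in the results for the members was not tested beyond these values.

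When each library's trend on length was removed, the median of the members became -0.06 at 12 h and -0.14 at 24 h. At 12 h 33 of the 77 tested members were then lower, beside 31.7% of all genes, and 11 of the 77 higher, beside 28.5%. At 24 h 38 of the 77 were lower, beside 32.0% of all genes, and 13 of the 77 higher, beside 32.8%. Of the members called lower in the first place, 32 of 43 and 38 of 45 stayed called lower, and of those called higher, 8 of 9 and 8 of 8 stayed so. Among the members themselves, Spearman's rho of the fold change with length was 0.10 (12 h) and 0.05 (24 h), and with the level with Gln added it was -0.06 at each time, across 77 genes that are not independent of each other. Over all 11880 genes tested, rho with length was 0.19 (12 h) and 0.16 (24 h).

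**Figure D5:**
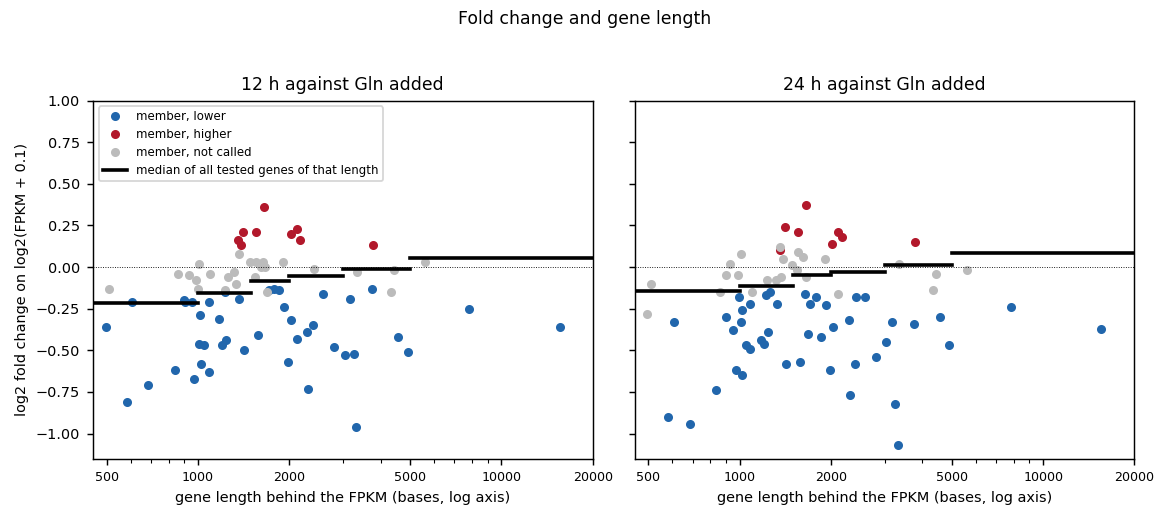
Log2 fold change (vertical axis) by the gene length behind the FPKM (horizontal log axis, bases) for the 77 members at 12 h (left) and 24 h (right), coloured by call, with black lines for the median of all tested genes in 6 length classes. The black lines climb from -0.22 to 0.05 (12 h) and from -0.14 to 0.09 (24 h), and members called lower occur at all lengths.

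Other parts of the mitochondrial translation system are given from lists of general knowledge. Of all genes tested, 29.1% were higher and 31.0% lower at 12 h, and 33.0% and 31.7% at 24 h. Among 5 mitochondrial ribosomal proteins with other symbols, 3 were lower (60.0%) and none higher at each time. AURKAIP1 fell by 0.28 and 0.35 and CHCHD1 by 0.20 and 0.18 on the log2 scale at 12 h and 24 h. DAP3, a small subunit protein first known from cell death, was lower at 12 h (-0.12) and not called at 24 h (-0.02), and PTCD3 was not called at 12 h (-0.06) and lower at 24 h (-0.16). GADD45GIP1 was called at neither time (-0.07 and 0.00).

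Of 17 translation factors and mRNA helpers of mitochondria, 2 were higher (11.8%) and 7 lower (41.2%) at 12 h, against 29.1% and 31.0% of all genes. At 24 h 1 was higher (5.88%) and 9 lower (52.9%), against 33.0% and 31.7% of all genes. The release factor MTRF1L rose by 0.53 and 0.54, from 8.13 ± 0.378 to 11.8 ± 0.165 and 11.8 ± 0.415 FPKM (SD, n = 3). The largest fall was that of GFM2, which splits ribosomes after translation, at 12 h (-0.37), and that of SLIRP, which stabilises mitochondrial mRNAs, at 24 h (-0.46). Of 17 mitochondrial tRNA synthetases, 4 were higher (23.5%) and 9 lower (52.9%) at 12 h. At 24 h 2 were higher (11.8%) and 9 lower (52.9%), beside the same shares of all genes. MARS2 rose by 0.52 and 0.68, and EARS2 fell by 0.54 at 12 h.

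The proteins that assemble the mitochondrial ribosome went in both directions. Of 25, 10 were higher and 6 lower at 12 h, when 29.1% of all genes were higher and 31.0% lower. At 24 h 8 were higher and 8 lower (32.0% each), near the 33.0% and 31.7% of all genes. The medians of the list were 0.09 at 12 h and 0.11 at 24 h. NGRN, which is needed for the large subunit RNA, rose by 0.42 and 0.53, from 57.1 ± 1.21 to 76.6 ± 1.16 and 82.8 ± 5.65 FPKM, and RBFA, which matures the small subunit RNA, fell by 0.45 and 0.40. Of 5 mitochondrial transcription factors none was lower, 1 was higher at 12 h and 2 were higher at 24 h, beside the same shares of all genes. POLRMT, the mitochondrial RNA polymerase, rose by 0.47 and 0.50. The difference between these lists and the members was not tested.

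Of the 13 protein-coding genes of mitochondrial DNA, whose mRNAs these ribosomes translate, 3 were higher (23.1%) and 1 lower (7.69%) at 12 h. At 24 h 2 were higher (15.4%) and 1 lower (7.69%). Of all genes, 29.1% were higher and 31.0% lower at 12 h, and 33.0% and 31.7% at 24 h. The largest rise was that of CYTB (0.43 and 0.29), and ND4L was lower (-0.15 and -0.19). Their share of all FPKM was 16.7% ± 0.632 (SD, n = 3) in the Gln-added group, 17.5% ± 0.208 after 12 h and 17.4% ± 1.42 after 24 h, and the groups overlapped at both times. The ribosomal RNAs of mitochondria were not analysed here. Of the 8 hepatocyte markers, 5 were lower (62.5%) and none higher at each time. Their summed level went from between 7471 and 7569 FPKM with Gln added to between 6331 and 6662 FPKM in the deprived libraries. CD68 was the only marker of other cell types over the filter and fell by 0.29 and 0.66 on the log2 scale. The part of these shifts in the results for the members was not tested.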

How the data were processed

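The 9 RNA-seq libraries of HepG2 cells were analysed, 3 in each of 3 groups taken from the labels. The values deposited by the authors are FPKM. Per the methods of the study, reads were aligned to GRCh38 with STAR, and the submitters' processing notes name HTSeq and R 3.2.0. The labels and the methods name different library kits, so the use of strand is open.

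FPKM are not counts. Their steps gave whole fragments for 100% of the 22587 genes (tolerance 0.01), which set the depth and the gene lengths. Groups were compared with limma 3.58.1 (R 4.3.3, lmFit and eBayes with trend) on log2(FPKM + 0.1). The model was fitted to all 3 groups at once, for the 11880 genes whose FPKM averaged 0.5 or more, and p-values were adjusted by Benjamini and Hochberg over these genes. The added 0.1 shrinks the fold changes of low genes. The fit and the recovery were tested on simulated data with the same spread beyond sampling noise for all genes and groups. Replicates here varied by a median of 3.16% with Gln added and 5.44% at 24 h, so unequal spread was not covered by that test. No replicate pair was as alike as sampling noise allows.

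The members and gene lists were chosen with earlier results of these data known. Named members were the 5 largest rises and falls per comparison among called genes without overlap, the 3 highest and 3 lowest, those under the filter and 12 chosen for their role. MRPS33, MRPL22, MRPL24, MRPL38, MRPL40, MRPL47, MRPL55, MRPS5, MRPS11 and 4 further members that differed between 12 h and 24 h were added after their values were seen. Other pathway genes are the largest called rise and fall of each list, except for a gene that is not reported here. Overlaps of exons come from GENCODE v44 and promoters from RefSeq. The overlaps are shares of all annotated exonic bases, which for some members exceed the length behind the FPKM and for others, such as MRPL39, fall short of it. They do not give the overlap within the counted bases. Alternatives were other pseudocounts, filters, scalings and fits, the removal of the length trend (a natural spline per library), a replicate block, each library left out, and voom on the recovered fragments, which was chosen after seeing the data. Figures were drawn with matplotlib 3.10.9.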

Additional observations from a re-analysis of the deposited data

Results flagged for a closer look

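The change from Gln added differed between 12 h and 24 h for 10 members by the direct test of 24 h against 12 h (limma, adjusted p under 0.05), and 10.5% (lower) and 9.57% (higher) of all genes tested passed it too. The log2 differences, 24 h minus 12 h, were -0.30 for MRPL39, -0.27 for MRPL37, -0.26 for MRPL48, -0.23 for MRPL27, -0.23 for MRPL11, -0.21 for MRPL35, -0.19 for MRPS9, -0.17 for MRPS15, -0.16 for MRPL28 and 0.16 for MRPL34. MRPS9 was not called at 12 h (0.03) and was lower at 24 h (-0.16), and the 3 libraries at 24 h (26.2 to 26.7 FPKM) lay under all others (29.0 to 30.4 FPKM).

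The calls of MRPL39, MRPL37, MRPL27, MRPL11 and MRPS9 were kept under all 20 alternatives. That of MRPL34 was lost under 12 of them (adjusted p up to 0.117), that of MRPL28 under 10 (up to 0.135), that of MRPL48 under 4 (up to 0.0757), that of MRPS15 under 2 (up to 0.0605) and that of MRPL35 under 1 (0.0546). Without replicate 1 at 12 h, MRPL28, MRPL34, MRPL35, MRPL48 and MRPS15 all lost their calls.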

How the results depend on the processing

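In all, 93 results were recomputed under up to 20 alternatives, giving 1752 values, and 0 of them reversed a called direction. Of the values for named members, 28 lost a call and 13 gained one. With the length trend removed, the median of the members was -0.063 at 12 h and -0.136 at 24 h, and 13 members were higher at 24 h. With FPKM rescaled to the same total the 24 h median was -0.169 and the median level with Gln added 28.51 FPKM, and with median-ratio scaling that level was 28.93 FPKM. The 1 member higher at 24 h than at 12 h became 0 without a filter, with median-ratio scaling, with only the 2 groups compared and without the trend of eBayes, and became 2 with the filter raised to 1 FPKM, with the same total and with the replicate block. Leaving out 1 library at a time, members called higher and lower ranged from 7 to 9 and 36 to 44 at 12 h, from 5 (without replicate 1 at 24 h) to 8 and 41 to 50 at 24 h, and from 0 to 4 (without replicate 2 at 24 h) and 5 (without replicate 1 at 12 h) to 11 at 24 h against 12 h. The medians ranged from -0.180 to -0.149, from -0.228 to -0.171 and from -0.038 to 0.001. Replicate numbers were shared across groups, but same-numbered libraries did not all deviate together (correlations of -0.1364 to 0.2831), so they were not taken as pairs. With the replicate block 9 members were higher and 44 lower at 12 h, 9 and 47 at 24 h, and 2 and 9 at 24 h against 12 h. With 3 libraries a group, a single value cannot reach an exact permutation p below 0.1.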
